A study of Mus musculus with 20 samples.

Results

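The glycolysis enzyme genes described here are 10 genes that encode 1 enzyme form for each of the 10 steps from glucose to pyruvate: Hk1, Gpi1, Pfkm, Aldoa, Tpi1, Gapdh, Pgk1, Pgam1, Eno1 and Pkm. They were chosen by name. Each of the 10 symbols matched exactly 1 of the 39174 genes in the files, and all 10 passed the filter on low values in every comparison. Their transcripts were measured by RNA-seq in primary spinal motoneurons from CD-1 mouse embryos (E12.5, enriched by panning for the p75 receptor). The neurons were kept for 7 days in microfluidic devices built so that axons grow through narrow channels to the far side, away from cell bodies and dendrites. The libraries fell into 4 groups: 4 control axonal, 4 control somatodendritic, 6 knockdown axonal and 6 knockdown somatodendritic, 20 libraries in all. Control motoneurons carried an empty lentiviral vector (their titles read GFP), and knockdown motoneurons carried a lentiviral short hairpin RNA against Tdp-43, an RNA-binding protein encoded by Tardbp. Every culture had thus been transduced with a lentivirus. Total RNA was amplified before sequencing because the axonal compartment yields little of it. The control libraries had been described in an earlier study and were processed in parallel with the knockdown libraries. Nothing in the labels says that the libraries of a group came from separate cultures, so that p-values measure the spread between libraries.

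Glycolysis splits glucose into pyruvate in the cytosol and yields ATP without oxygen. Its first steps consume ATP to make a doubly phosphorylated sugar, aldolase cleaves that sugar, and the later steps recover ATP at phosphoglycerate kinase and pyruvate kinase. In neurons the pathway delivers pyruvate to mitochondria, and several of its enzymes are carried along axons with slow transport. Many of its genes have processed pseudogenes, which are copies of the spliced transcript inserted elsewhere in the genome.

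In the order of the pathway, Hk1 (chr10:62268855-62379908 of GRCm38, as the files give it) encodes hexokinase 1, which phosphorylates glucose. Gpi1 (chr7:34202122-34230289) encodes glucose-6-phosphate isomerase. Pfkm (chr15:98092589-98132447) encodes the muscle type subunit of phosphofructokinase, the main control point of the pathway. Aldoa (chr7:126795234-126800751) encodes aldolase A, and Tpi1 (chr6:124810586-124814296) encodes triosephosphate isomerase, which interconverts the cleavage products. Gapdh (chr6:125161853-125166467) encodes the dehydrogenase that reduces NAD+. Pgk1 (chrX:106187100-106203699) encodes phosphoglycerate kinase 1. Pgam1 (chr19:41911871-41918664) encodes phosphoglycerate mutase 1, and Eno1 (chr4:150236721-150248879) encodes alpha-enolase. Pkm (chr9:59656368-59679375) encodes pyruvate kinase of muscle and brain.

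Several of these genes share their coding sequence with annotated pseudogenes that have rows of their own in the files, and reads from such sequence cannot be assigned to 1 place. The coding sequence of each gene was therefore aligned to the GENCODE M21 transcripts of GRCm38. A transcript counted as a copy at 90% identity or more over at least 200 bases that made up at least 50% of it. Gapdh had 158 copies. Of the 140 that are in the files, 136 are annotated as pseudogenes and 110 were above 0 FPKM, a count of fragments set relative to transcript length and library size, in at least 1 library. Eno1 and Pkm had 6 copies each, Aldoa and Pgk1 4, Pgam1 3, Tpi1 2 and Gpi1 1, and none was found for Hk1 and Pfkm.

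The sequences below show how little separates the copies with the highest FPKM from their genes. Positions are counted from 1 at the first coding base, and each line is the coding strand, 5′ to 3′, from GRCm38. Capitals mark the positions at which a copy differs from its gene within the stretch. For Gapdh, coding bases 326 to 385 lie in exon 4 at chr6:125162977-125163036 on the minus strand.

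Gapdh: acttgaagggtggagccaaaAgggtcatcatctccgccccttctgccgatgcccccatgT

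Gm13394: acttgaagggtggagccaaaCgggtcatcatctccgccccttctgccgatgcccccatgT

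Gm5559: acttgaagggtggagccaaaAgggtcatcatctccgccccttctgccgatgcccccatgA

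Gm12033: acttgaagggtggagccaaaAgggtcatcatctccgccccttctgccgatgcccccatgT

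Gm13394 (chr2:28933610-28934609), Gm5559 (chr5:95861714-95862715) and Gm12033 (chr11:20335012-20336013) each differ from the 999 coding bases of Gapdh at 1 position, A346C, T385A and T504C respectively (the base of Gapdh first). The last of these lies outside the stretch shown. For Eno1, coding bases 711 to 770 lie in exon 8 at chr4:150246613-150246672 on the plus strand. The processed pseudogene Gm4735 (chr2:80837141-80838442) differs from Eno1 at 5 of 1302 coding positions, T726C, T816G, A1056G, T1224C and C1233T, of which the first is in the stretch shown.

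Eno1: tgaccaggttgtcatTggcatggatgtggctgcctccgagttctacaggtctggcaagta

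Gm4735: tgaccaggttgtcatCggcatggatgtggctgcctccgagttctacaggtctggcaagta

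For Pgk1 and Pgam1 the main copies do not differ from the gene at any coding base compared, so that no read within 1 exon of the coding sequence can tell them apart. Coding bases 6 to 65 of Pgk1, in exon 1 at chrX:106187256-106187315, recur without a difference in Pgk1-rs7 (chr12:10900177-10900236) and Gm5537 (chr3:58104183-58104242). Coding bases 1 to 60 of Pgam1, in exon 1 at chr19:41912048-41912107, recur in Pgam1-ps2 (chr7:27470476-27470535).

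Pgk1: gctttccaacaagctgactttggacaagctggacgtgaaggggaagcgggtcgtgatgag

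Pgam1: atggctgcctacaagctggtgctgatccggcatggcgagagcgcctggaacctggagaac

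Most of the FPKM that matched Gapdh, Pgk1, Eno1 and Pgam1 stood in the rows of the copies. Over the 20 libraries, the Gapdh row had a mean of 49.1 FPKM and its copies together 417, so that the copies held 89.5% of the sum, between 79.8% and 93.7% in single libraries. The row of Gm13394 alone had 295 FPKM, against 38.3 for Gm5559 and 22.4 for Gm12033. For Pgk1 the copies held 78.0% (10.5 FPKM in its own row and 37.0 in the copies), for Eno1 74.1% (33.8 and 96.7) and for Pgam1 61.2% (55.0 and 86.8). Within Eno1, Gm4735 had 65.1 FPKM. A further near-identical copy of Eno1 in the files is not described by sequence here. For Gpi1, 20.6% was in Gm1840 (chr8:5639580-5641011), which matches 1043 bases at 98.66% identity. For Aldoa and Pkm the shares were 2.02% and 0.528%, and for Tpi1 neither annotated copy is in the files. How the reads of a shared sequence were divided between the rows was not tested, and the single rows of Gapdh, Pgk1, Eno1 and Pgam1 are uncertain for this reason. Values below are those of each gene's own row unless the copies are named.

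**Figure D1:**
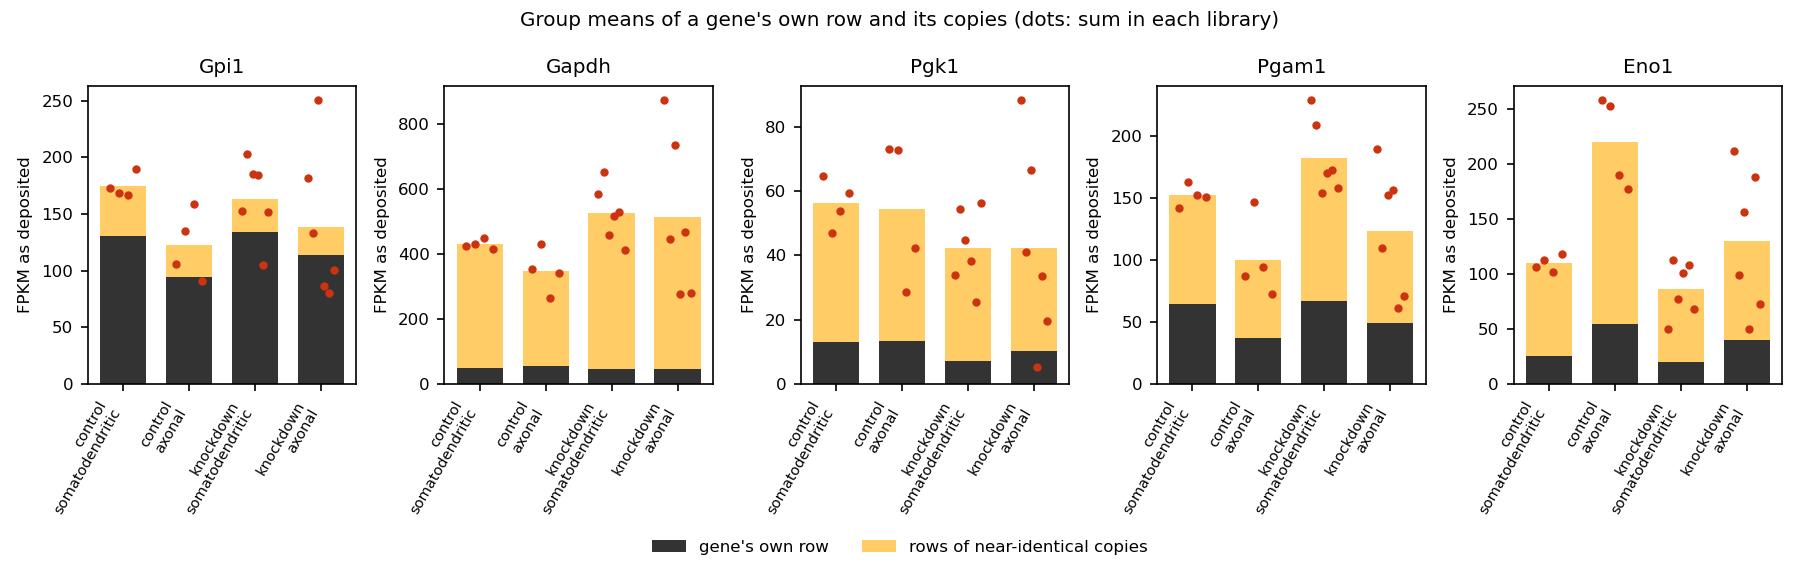
Mean FPKM as deposited of the gene's own row (dark) and of its near-identical copies (light, stacked on top) for 5 of the genes in the 4 groups, with a dot for the sum in each library. In Gapdh, Pgk1 and Eno1 the dark part is the smaller one in every group, and in Eno1 the control axonal sums of 177 to 258 FPKM lie above the control somatodendritic sums of 102 to 118.

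The same question bears on Gapdh as the reference transcript of the quantitative PCR in the study. The listed primers span 141 bases, coding positions 155 to 295 within exon 3. Of the 158 copies, 68 hold the forward site, 60 the reverse site and 37 both. In 20 of them the whole stretch is without a difference. A stretch within 1 exon does not separate cDNA from genomic DNA by its length either. What the primers amplified was not tested.

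The libraries differed in depth. Relative to the deepest library, depth estimated from the FPKM intervals of 680 genes was between 0.103 and 1, and 5 libraries were under 0.5 (knockdown axonal replicates 2, 4 and 5 and knockdown somatodendritic replicates 5 and 6). Tardbp was checked first. In the somatodendritic compartment its mean was 4.01 ± 3.44 FPKM (SD, n = 6) after knockdown and 27.3 ± 5.55 (n = 4) in controls (exact permutation test, two-sided, p = 0.00476, which 210 splits cannot undercut). In axons it was 12.99 ± 11.1 FPKM after knockdown and 24.6 ± 9.39 in controls (exact permutation test, p = 0.138). On the scaled values that the fits below use, the axonal mean was 10.6 FPKM after knockdown, 35.1% of the control mean of 30.1. That difference was -19.5 FPKM (exact permutation test, p = 0.00952). The library labelled knockdown axonal replicate 1 had 33.2 FPKM, above every axonal control, and goes against its label in the values as deposited. With all 20 libraries scaled together it had 26.9, within the axonal control range of 17.6 to 48.4. Without that library, and without the 5 shallow ones, the number of members called was also 0 in each comparison below that involves knockdown axons. Of 7 motoneuron markers found in the files, the defining Chat, Isl2 and Mnx1 were at 0 in all 20 libraries, and Slc5a7, Isl1, Prph and Nefl were above 0 in at least 1 library.

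The precision of a single value differed widely among the 10 genes. The files give an interval for each FPKM. The distance from its centre to its end, as a median over the 20 libraries, was 15.9% of the FPKM for Pkm, 20.7% for Aldoa, 24.8% for Gpi1, 30.8% for Pgam1 and 45.7% for Pfkm. It was 60.4% for Tpi1, 79.4% for Gapdh, 107% for Eno1, 109.9% for Pgk1 and 141% for Hk1. The interval began at 0 in 13 libraries for Hk1 and for Pgk1, in 11 for Eno1, in 6 for Gapdh and in 5 for Tpi1. Pkm, Aldoa and Gpi1 are therefore the most firmly measured members. Hk1, Pgk1 and Eno1 are the least.

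Aldoa, Pkm and Gpi1 had the highest FPKM, a level per length of transcript, in all 4 groups. In control somatodendritic libraries the means were 242 ± 27.9 FPKM for Aldoa, 167 ± 6.0 for Pkm and 130.3 ± 7.83 for Gpi1 (SD, n = 4), and the ranges of these neighbours did not overlap. Pgam1 (64.2), Tpi1 (57.7), Hk1 (53.9) and Gapdh (49.5 FPKM) followed with overlapping ranges. Below them came Pfkm (26.3) and Eno1 (25.1), which overlapped, and last Pgk1 at 13.2 ± 3.52 FPKM. In control axons, the first 3 places were the same (172, 126 and 94.2 FPKM), with overlap between neighbours. Eno1 (54.5 FPKM) stood beside Gapdh (54.7) there, and Pfkm was last at 7.86 ± 3.15. In knockdown axons Pkm (154) and Aldoa (151) led, and no neighbours in the order had separate ranges. With the copies added to the rows, Gapdh had the highest sum of all 10 in every group, for example 429.8 FPKM in control somatodendritic and 347 in control axonal libraries.

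**Figure D2:**
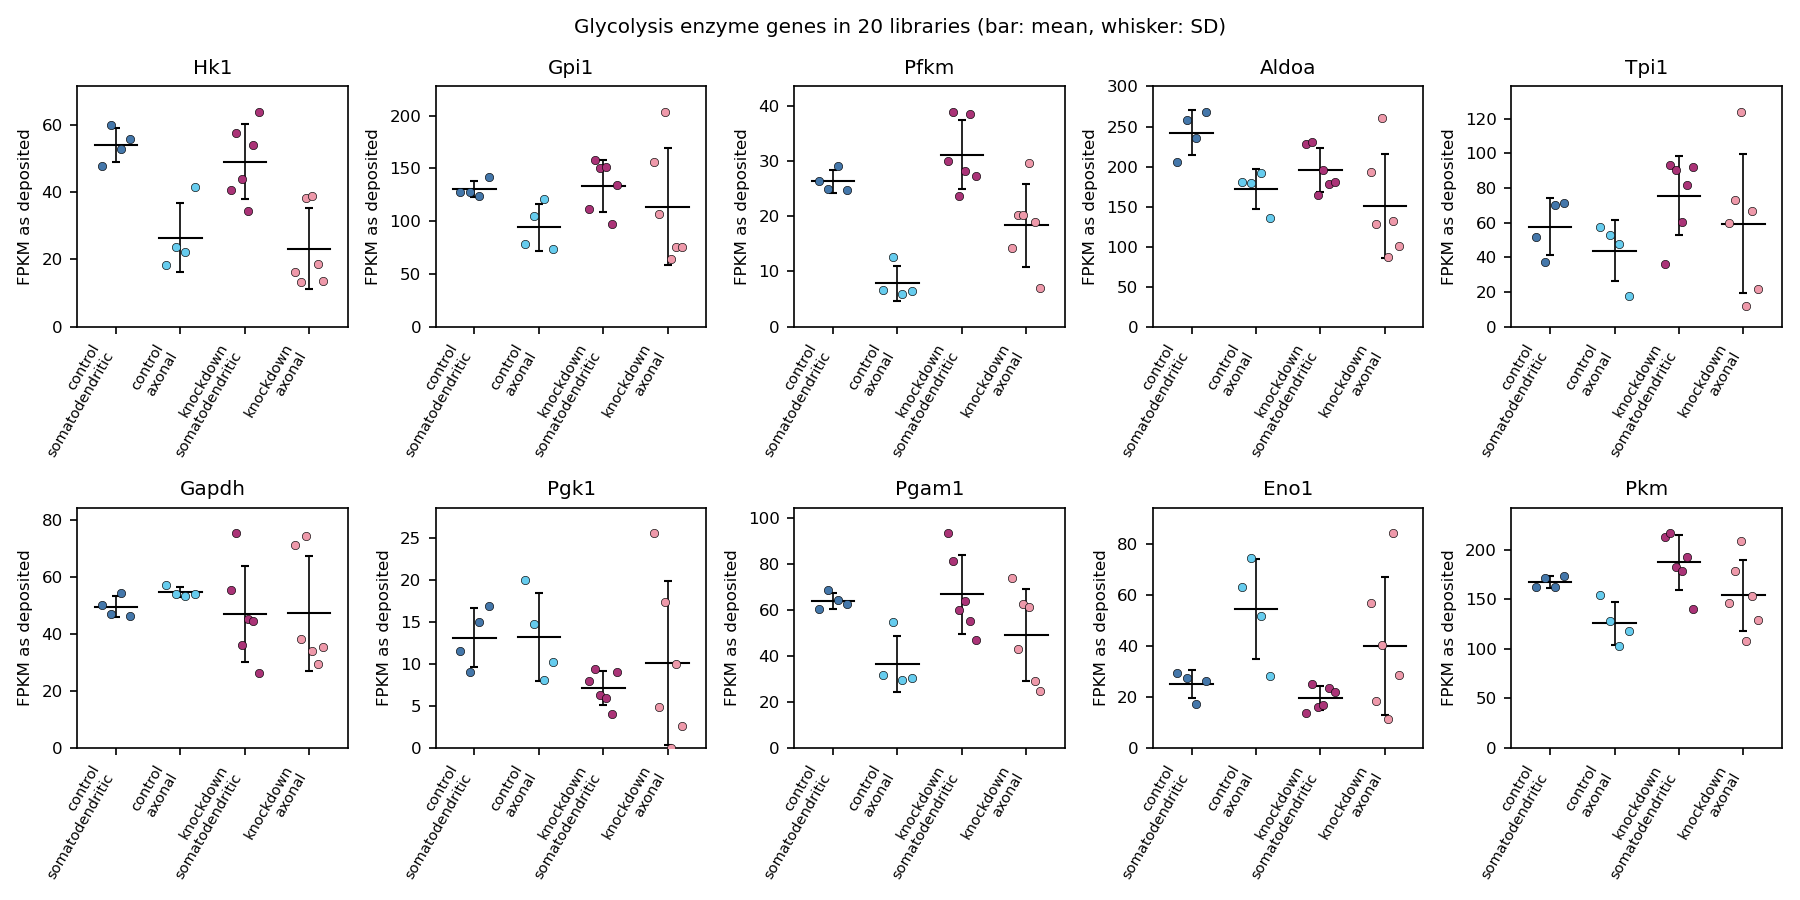
FPKM as deposited of the 10 genes in each library, 1 dot per library, in the 4 groups, with the mean (bar) and SD (whisker). Control somatodendritic libraries lie close together, with Pkm between 162 and 174 FPKM, while knockdown axonal libraries spread widely, with Tpi1 between 11.6 and 124 FPKM.

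Which transcripts differ between axons and the somatodendritic compartment was asked first in control motoneurons. Eno1 was higher in axons and Pfkm was lower, and no other member passed the test. The Eno1 row stood at 63.2, 74.5, 52.0 and 28.3 FPKM in axonal replicates 1 to 4 and at 29.5, 27.6, 17.2 and 26.3 FPKM in somatodendritic replicates 1 to 4. Axonal replicate 4 lay within the somatodendritic range, and the other 3 axonal libraries lay above it. After scaling (each library divided by its median ratio to the others) the ranges did not overlap. The log2 change was 1.54 (SE 0.32, adjusted p = 0.0179, limma on log2 of scaled FPKM + 1). Pfkm stood at 6.55, 12.6, 5.83 and 6.50 FPKM in axonal libraries and at 26.4, 25.0, 29.1 and 24.7 FPKM in somatodendritic libraries. All 4 axonal values lay below the somatodendritic ones, with or without scaling. The log2 change was -1.19 (SE 0.29, adjusted p = 0.0351).

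The copies of Eno1 showed the same direction in these libraries. Gm4735 was at 105 ± 19.2 FPKM in axonal and 56.6 ± 2.26 FPKM in somatodendritic control libraries, a log2 change of 1.38 (SE 0.19, adjusted p = 0.00327). The sum of Eno1 and its copies was 258, 253, 190.0 and 177 FPKM in axonal replicates 1 to 4. In somatodendritic replicates 1 to 4 it was 107, 113, 102 and 118 FPKM. These ranges did not overlap in FPKM as deposited either. The log2 change of the sum was 1.5 (SE 0.18, adjusted p = 0.00196), between 1.42 and 1.59 when each library was left out in turn, and the call was kept in all of these fits. For the Eno1 row alone the call was lost without control axonal replicate 1 (log2 change 1.45, adjusted p = 0.0513) and without control somatodendritic replicate 3 (1.37, adjusted p = 0.0666). The Pfkm call was lost in 6 of the 8 fits that left out 1 library, with log2 changes between -1.40 and -1.11 over the 8. It was also lost with a replicate block. With all 20 libraries in 1 fit neither the Pfkm row nor the Eno1 row was called. Pfkm has no copy, and the gene that overlaps it, Senp1 on the opposite strand, shares 18 exonic bases and had 6.73 FPKM.

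Of 13760 genes tested, 3.93% were called higher and 2.97% lower in control axons, so that 1 member called in each direction has to be read against shares of that size. At an unadjusted p under 0.05, Gapdh and Eno1 were higher and Pfkm was lower, against 11.1% of all genes higher and 11.8% lower. The Gapdh row had a log2 difference of 0.66 (SE 0.19, adjusted p = 0.0592), whereas Gapdh and its copies together had 0.20 (SE 0.17, adjusted p = 0.530). Its row stood within 53.4 to 57.1 FPKM in axonal and 46.2 to 54.3 FPKM in somatodendritic libraries as deposited. Hk1 (-0.55), Pgk1 (0.46) and Pgam1 (-0.32) did not pass, and neither did Pgk1 (0.38) and Pgam1 (-0.12) with their copies. For Pkm (0.10, SE 0.18), Aldoa (0.03, SE 0.18), Gpi1 (0.03, SE 0.21) and Tpi1 (0.05, SE 0.37) the 95% intervals reached no further than -0.76 to 0.86 on the log2 scale, and all 4 estimates were below 0 in FPKM as deposited, with quantile normalization and with scaling to Gapdh. The member median was 0.04, against -0.06 over all genes.

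For 5 of the 10 members the direction depends on the scaling. In FPKM as deposited, 8 of the 10 members were lower in control axons, with a median log2 difference of -0.48, and the median over all genes was also -0.48. On that scale Hk1, Pfkm and Pgam1 were called lower, where 1711 of the 13760 genes were called lower and 344 higher, and the Eno1 row was not called (1.03, adjusted p = 0.0521). Pfkm, Hk1 and Pgam1 were below 0 and Eno1 and the Gapdh row above 0 on both scales. Gapdh with its copies was at -0.33 as deposited. Less RNA of a gene per axon and fewer cells contributing that RNA cannot be told apart in these bulk libraries.

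Markers of several cell types moved with the compartment as well. Motoneuron markers summed to 29.2 to 67.3 FPKM in axonal (3 of 7 above 0) and 90.1 to 116 FPKM in somatodendritic control libraries (4 of 7), and 5 RNAs kept in nuclei to 445 to 764 and 789 to 1165 FPKM. Of 5 fibroblast markers, 4 were above 0 in control axonal libraries, summing to 11.9 to 47.9 FPKM against 1.43 to 11.9 in somatodendritic ones, with Lum at 0 in the axonal libraries. The log2 change of Col1a1 was 3.51 (adjusted p = 0.00442). All 5 markers of dividing cells were detected, at 97.0 to 187 FPKM in axonal and 49.1 to 72.2 FPKM in somatodendritic control libraries. Summed markers of other neurons were lower in axons (33.5 to 56.7 against 145 to 179.9 FPKM, with 5 of 5 detected in both). Astrocyte markers ranged from 71.5 to 445 FPKM in axonal and from 268 to 348 FPKM in somatodendritic control libraries, with all 6 detected, and microglia markers reached at most 4.17 and 20.3 FPKM, with Aif1 at 0. The part of these cells in the Eno1 and Pfkm results was not tested.

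In Tdp-43 knockdown motoneurons, no member was called between the compartments, where 1.28% of 14021 genes were called in either direction. At an unadjusted p under 0.05, Eno1 was higher (7.86% of all genes were) and Hk1 lower (8.73%). The Eno1 row was at 56.9, 18.4, 40.6, 11.5, 84.3 and 28.9 FPKM in axonal replicates 1 to 6 and at 13.8, 25.3, 16.04, 16.8, 23.6 and 22.1 FPKM in somatodendritic replicates 1 to 6. Axonal replicates 2 and 4 lay within or below the somatodendritic range and the other 4 above it. Its log2 difference was 0.98 (SE 0.41, adjusted p = 0.245), and that of the sum with its copies 0.71 (SE 0.33, adjusted p = 0.300). Hk1 was at 16.3, 13.4, 38.2, 38.9, 18.6 and 13.5 FPKM in axons and at 40.6, 57.5, 43.8, 34.3, 54.0 and 63.8 FPKM in the somatodendritic compartment. Only axonal replicates 3 and 4 reached into the somatodendritic range, and the log2 difference was -0.92 (SE 0.32, adjusted p = 0.160). The difference for Pfkm was -0.58 (SE 0.34, adjusted p = 0.416). Its axonal libraries ranged from 6.98 to 29.5 FPKM, with a median of 19.5, and its somatodendritic libraries from 23.6 to 38.9 FPKM, with a median of 29.1. The member median was -0.16, against -0.07 over all genes. Fibroblast markers summed to 11.4 to 81.1 FPKM in knockdown axonal (4 of 5 above 0, Lum at 0) and 0 to 13.9 FPKM in knockdown somatodendritic libraries (5 of 5). Motoneuron markers summed to 6.92 to 42.8 FPKM (1 of 7) and 37.6 to 59.1 FPKM (3 of 7), with Chat, Isl2 and Mnx1 at 0. The 5 RNAs kept in nuclei summed to 1159 to 2329 FPKM in knockdown axonal and 680 to 1383 FPKM in knockdown somatodendritic libraries. In the same order, markers of dividing cells summed to 19.3 to 261 and 0.955 to 57.4 FPKM. Markers of other neurons summed to 1.88 to 190 and 95.6 to 142 FPKM. Astrocyte markers ran from 99.4 to 451 and 261 to 467 FPKM, and microglia markers reached at most 39.2 and 25.9 FPKM. The part of all these in the Eno1 and Hk1 values was not tested.

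The effect of Tdp-43 knockdown was then compared within each compartment. In the somatodendritic compartment no member was called, where 0.974% of 13762 genes were called in either direction. At an unadjusted p under 0.05 none was higher (4.59% of all genes were) and 3 were lower, Aldoa, Pgk1 and Eno1 (9.22% of all genes were). Aldoa had 206, 259, 236 and 268 FPKM in control and 228, 230.5, 165, 195, 178 and 180.2 FPKM in knockdown replicates 1 to 6. After scaling, all 6 knockdown values lay below the 4 controls. The log2 difference was -0.52 (SE 0.13, adjusted p = 0.0940), and it was -0.31 in FPKM as deposited, where the ranges overlapped. Pgk1 had 11.5, 9.11, 15.1 and 16.95 FPKM in control and 8.0, 9.4, 6.3, 6.0, 4.1 and 9.1 FPKM in knockdown libraries, and the scaled ranges did not overlap. Its log2 difference was -0.99 (SE 0.31, adjusted p = 0.154). With its copies added it was -0.66 (SE 0.25, adjusted p = 0.256). Eno1 had -0.55 (SE 0.25, adjusted p = 0.348) alone and -0.61 (SE 0.21, adjusted p = 0.213) with its copies.

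For Gapdh the row and its main copy had opposite signs after knockdown in the somatodendritic compartment. The row had a log2 difference of -0.35 (SE 0.24, adjusted p = 0.566). Gm13394 had 249 ± 7.53 FPKM in control and 352 ± 36.0 FPKM in knockdown libraries, ranges that did not overlap as deposited, and a log2 difference of 0.28 (SE 0.10, adjusted p = 0.243). The sum of Gapdh and all its copies differed by 0.06 (SE 0.12, adjusted p = 0.885). The 95% interval of that sum reached from -0.21 to 0.32, and the estimate was 0.27 in FPKM as deposited. The intervals of Pkm (-0.33 to 0.20) and Pfkm (-0.40 to 0.42) also held 0 near their centre. Over the 10 genes the median was -0.27, against -0.13 over all genes. In FPKM as deposited the member median was -0.06 (5 genes below 0 and 5 above), against 0.04 over all genes, and with scaling to Gapdh it was 0.08, against 0.15. The sign of the member median thus changed with a scaling that moved all genes. The member median lay below that of all genes on these 3 scales. These 3 results are not independent, because a scaling shifts every gene by about the same amount. Without the shallow libraries the medians were -0.12 and -0.03.

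Neuronal markers moved with the knockdown in this compartment. The sum of the motoneuron markers was 90.1 to 116 FPKM in control and 37.6 to 59.1 FPKM in knockdown somatodendritic libraries, ranges that did not overlap, with 4 of 7 markers above 0 in control and 3 of 7 in knockdown libraries and Chat, Isl2 and Mnx1 at 0 in both. The log2 change of Nefl was -1.37 (SE 0.17, adjusted p = 0.00143). Markers of other neurons, all 5 detected, did not overlap either, at 145 to 179.9 FPKM in control and 95.6 to 142 FPKM in knockdown libraries. The part of these cells in the values of the glycolysis genes and of the neighbouring pathways was not tested.

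In axons, no member was called after Tdp-43 knockdown, where 0.401% of 13958 genes were called in either direction. At an unadjusted p under 0.05 none was higher (2.14% of all genes were) and Aldoa, Gapdh and Eno1 were lower (6.46% of all genes were). This tally of 3 fell to 0 without control axonal replicate 3, to 1 without control axonal replicate 1 and to 1 without the shallow libraries, and was 5 with all 20 libraries in 1 fit. It also depends on the scaling: in FPKM as deposited, and likewise with scaling to Gapdh, 0 members were lower and 1 was higher at that threshold, and as deposited 373 of all genes were lower and 999 higher. Aldoa was at 181, 179.8, 192 and 136 FPKM in control and at 193, 129, 261, 87.4, 132 and 101 FPKM in knockdown replicates 1 to 6. Knockdown replicates 1 and 3 lay above every control before scaling and the other 4 below. The log2 difference was -0.80 (SE 0.31, adjusted p = 0.459). Gapdh was at 57.1, 54.1, 53.4 and 54.1 FPKM in control axons, and at 71.3, 38.4, 74.4, 34.1, 29.5 and 35.4 FPKM in knockdown axons. Here too replicates 1 and 3 were above and the other 4 below the controls, while after scaling all 6 were below. The log2 difference of the Gapdh row was -0.82 (SE 0.33, adjusted p = 0.485). Gapdh with its copies had a difference of -0.08 (SE 0.32, adjusted p = 0.962), which was 0.45 in FPKM as deposited, and Gm13394 alone 0.47 (SE 0.37, adjusted p = 0.751).

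Eno1 had a log2 difference of -1.14 (SE 0.50, adjusted p = 0.537) in knockdown axons. With its copies it was -1.44 (SE 0.38, adjusted p = 0.174). The sums were 212, 99.3, 156, 49.9, 188 and 72.7 FPKM in knockdown replicates 1 to 6, of which 4 lay below the control range of 177 to 258 and the other 2 within it. Pgk1 had -1.42 (SE 0.72, adjusted p = 0.616) alone and -1.19 (SE 0.58, adjusted p = 0.598) with its copies. Its knockdown values ran from 0 in replicate 4 to 25.6 in replicate 1. Pfkm was the only member above 0 after scaling (0.60, SE 0.47, adjusted p = 0.752), with 14.2, 20.2, 20.1, 29.5, 18.9 and 7.0 FPKM in knockdown axons, where 1 of 6 libraries lay within the control range of 5.83 to 12.6 FPKM. Across the members the median was -0.56, against -0.17 over all genes. In FPKM as deposited the member median was -0.05, against 0.23 over all genes, and with scaling to Gapdh it was 0.26 (2 genes below 0 and 7 above), against 0.43. Here too the sign changed with a scaling that moved all genes. The member median lay below that of all genes on these 3 scales. A scaling shifts every gene by about the same amount, so these 3 results are not independent of each other.

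Other RNAs also differed between these axonal groups. Summed levels of 5 RNAs that are kept in nuclei were 1159 to 2329 FPKM in knockdown axons and 445 to 764 FPKM in control axons. Malat1, a long nuclear RNA, had a log2 difference of 1.33 (adjusted p = 0.0739). Nefl, the neurofilament light chain and the only motoneuron marker above 0 in knockdown axons, had -2.02 (adjusted p = 0.0907). Their part in the values of the glycolysis genes was not tested.

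**Figure D3:**
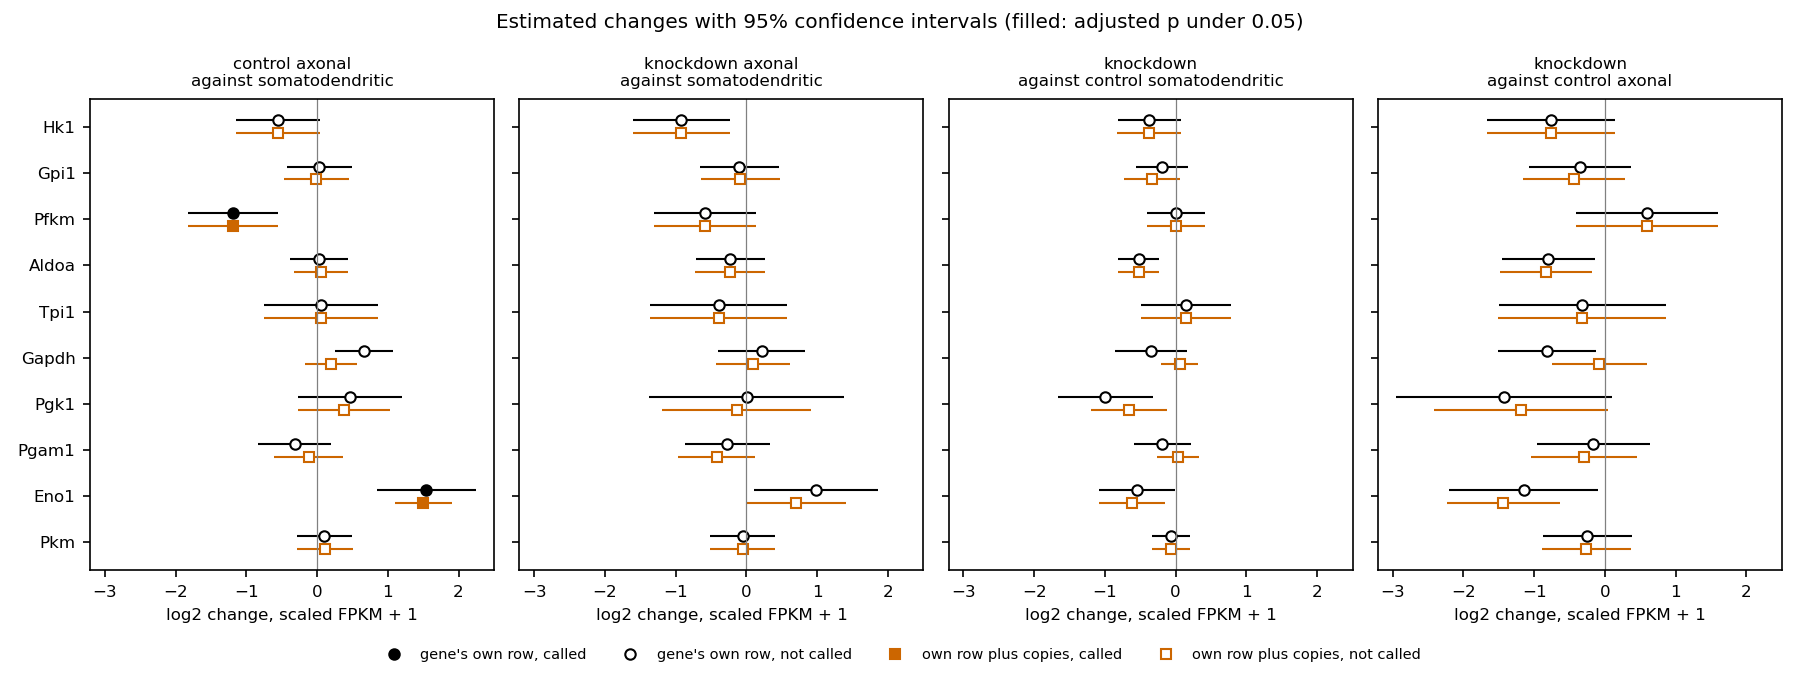
Estimated log2 change (scaled FPKM + 1) with its 95% confidence interval for each gene's own row (circles) and for the row plus copies (squares) in the 4 comparisons; filled symbols have an adjusted p under 0.05. Filled symbols appear for Eno1 and Pfkm in the first panel only, and for Gapdh after knockdown in axons the square lies at -0.08 while the circle lies at -0.82.

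To ask whether axons and cell bodies responded unequally to the knockdown, the axonal minus somatodendritic difference of libraries that share a replicate number was compared between knockdown and control. No member was called, and none had an unadjusted p under 0.05. Of 12646 genes, 0.0237% were called and 4.89% had an unadjusted p under 0.05. The estimates ran from -0.59 (Eno1, SE 0.56) to 0.59 (Pfkm, SE 0.49), with a median of -0.34 over the members and -0.01 over all genes. Without the shallow libraries the member median was 0.15 (3 genes below 0 and 7 above), against 0.12 over all genes. It was 0.13 against 0.31 with scaling to Gapdh, and -0.03 against 0.22 in FPKM as deposited. Standard errors lay between 0.30 (Pkm) and 0.83 (Pgk1), and the 95% interval of Eno1 reached from -1.80 to 0.61.

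The called members are each 1 of several isoenzymes, and the share of a member within its step was computed as a description, with no test, after the values had been seen. The row of Eno1 alone, without its copies, made up 35.4% ± 7.67 of the summed FPKM of Eno1 and Eno2 in control somatodendritic libraries (SD, n = 4), where Eno2, the neuronal gamma-enolase, had 45.9 ± 6.27 FPKM. In control axons the Eno1 share was 68.2% ± 6.80, and Eno2 had 24.1 ± 5.52 FPKM. All 4 axonal shares (58.3% to 73.6%) lay above the somatodendritic ones (24.8% to 42.6%). After knockdown the share was 21.8% ± 4.16 in somatodendritic and 56.5% ± 28.2 in axonal libraries. Here the axonal libraries ran from 22.5% to 100% and overlapped the somatodendritic range of 14.5% to 27.2%. With the copies added to Eno1, its share was higher in every group, 70.5% ± 3.73 in control somatodendritic and 90.1% ± 1.35 in control axonal libraries, and 54.1% ± 8.82 and 79.4% ± 15.9 after knockdown. On that count Eno1 and not Eno2 was the larger form in control somatodendritic libraries (66.2% to 75.2%), while all 4 control axonal libraries (88.7% to 91.9%) again lay above them. The log2 difference of Eno2 itself was -0.40 (adjusted p = 0.322) between control compartments and -1.83 (adjusted p = 0.208) between knockdown compartments.

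Pfkm was the smaller part of its step. It made up 24.5% ± 3.13 of Pfkm, Pfkl and Pfkp in control somatodendritic and 11.8% ± 5.85 in control axonal libraries, and 20.4% was the lowest somatodendritic and 20.1% the highest axonal share. Pfkp, the platelet type subunit, was the main form, with 62.3 ± 10.4 FPKM in control somatodendritic and 46.1 ± 20.0 FPKM in control axonal libraries. Its log2 difference was 0.00 (SE 0.32). The Pfkm shares after knockdown were 21.9% ± 4.18 and 20.3% ± 11.8. Aldoa exceeded Aldoc in 3 of 4 control axonal libraries and in all control somatodendritic libraries, with mean shares of 73.3% ± 25.5 and 62.0% ± 2.74. Aldoc also stands in the list of astrocyte markers. Hk1 made up 98.8% ± 0.99 of Hk1 and Hk2 in control somatodendritic libraries and 79.5% ± 29.4 in control axons, where 1 library fell to 36.0%.

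**Figure D4:**
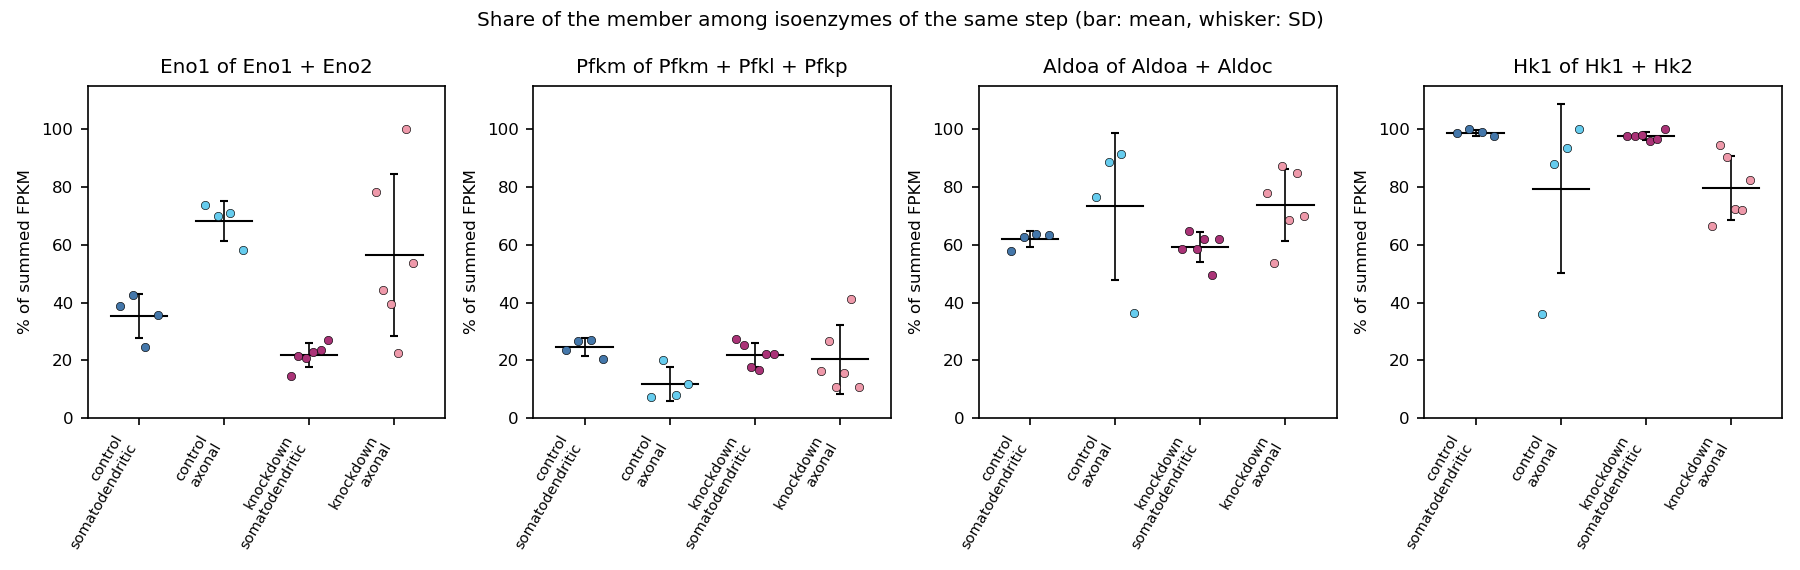
Share of the named gene in the summed FPKM of the isoenzymes of its step, in percent, 1 dot per library, with the mean (bar) and SD (whisker) of each group; copies are not included. The 4 control axonal libraries lie at 58.3% to 73.6% for Eno1, above the control somatodendritic libraries, and at 7.47% to 20.1% for Pfkm, below them.

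The neighbouring pathways were described from lists chosen by function. The lists hold 17 isoenzyme genes, 12 genes of lactate formation and of glucose and monocarboxylate transport, and 5 regulators of phosphofructokinase. They also hold 14 genes of pyruvate entry, 8 of the pentose phosphate branch, 10 of the NADH shuttles and 15 of the citrate cycle. Among all of these, 1 gene was called in 1 comparison. Sdhd, a membrane anchor subunit of succinate dehydrogenase, fell after knockdown in the somatodendritic compartment from 35.5 ± 6.60 to 18.9 ± 3.78 FPKM (log2 change -1.09, SE 0.20, adjusted p = 0.0229). At an unadjusted p under 0.05, 6 of the 15 citrate cycle genes were lower in that comparison and none was higher, where 9.22% of all genes were lower and 4.59% higher, with a list median of -0.30 against -0.13 over all genes. In FPKM as deposited that median was -0.09, with 8 of the 15 below 0. Of the pentose phosphate genes, 8 of 8 were below 0 there, as were 59.3% of all genes, with a median of -0.54. As deposited it was also 8 of 8, against 47.3% of all genes. Only 1 of the 8 had an unadjusted p under 0.05, near the share of 9.22% over all genes. Mdh1, the cytosolic malate dehydrogenase, had 94.6 ± 4.11 FPKM in control and 58.9 ± 17.7 in knockdown libraries (-0.94, SE 0.20, adjusted p = 0.0523).

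Between control compartments none of these 7 lists had a called gene. Of the NADH shuttle genes, 8 of 8 tested were below 0 in axons, as were 53% of all genes, with a median of -0.49 against -0.06. At an unadjusted p under 0.05, 3 of the 8 were lower, against 11.8% of all genes. As deposited, 8 of 8 and 71.1% of all genes were below 0, with medians of -1.01 and -0.48. Mpc2, part of the mitochondrial pyruvate carrier, had 52.5 ± 21.96 FPKM in cell bodies and dendrites and 9.06 ± 6.86 FPKM in axons (-2.45, SE 0.79, adjusted p = 0.0890). Mdh1 (-0.61) had an adjusted p of 0.147. Mdh2 (-0.40), Idh3g (-0.41), Sdhc (-0.75), Pdha1 (-0.20) and Ldhb (-0.36), other abundant genes of these lists, had adjusted p between 0.201 and 0.717. Bsg, the partner protein of the lactate transporters, was at -0.06. Taldo1 (0.17), Pgd (0.00), Pfkfb3 (0.06) and Pfkfb4 (-0.30) had adjusted p between 0.782 and 0.997. Aldoc (-1.07, SE 0.63) varied widely among axonal libraries, from 17.6 to 236 FPKM.

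The 10 genes did not move as 1 group over the 20 libraries. Against the mean profile of the members (centred log2 values, all libraries scaled together), the root mean square difference was 0.18 for Aldoa, 0.25 for Gpi1 and 0.27 for Pkm. These ranked 1, 2 and 5 among the 5744 genes whose mean reached 10 FPKM. Gapdh (0.38), Pgam1 (0.40), Tpi1 (0.57), Hk1 (0.63), Pfkm (0.71), Pgk1 (0.79) and Eno1 (0.82, rank 2524) lay farther away. The profile holds the members themselves, and all genes share the libraries and their depth, so that these are descriptions with no test. The genes nearest to the profile outside the list were Gm13493 (0.25), Gm7488 (0.26), Akr1a1 (0.27), Gm10123 (0.27) and Atp5b (0.28). Akr1a1 is an aldehyde reductase, and Atp5b encodes the beta subunit of mitochondrial ATP synthase. The correlation of a member with the mean of the other 9 ran from -0.26 (Pfkm) to 0.89 (Aldoa) over the 20 libraries.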

How the data were processed

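The deposited files hold FPKM values for 39174 genes of GRCm38, estimated by the authors in every library separately (Cufflinks 2.2.1, with FastQC 0.10.1 for quality control); the aligner's settings and the annotation release are not given in the sources used here. Cufflinks can divide reads that match several genes between their rows. Read totals are not part of these files. Amplification by PCR was without molecular identifiers, so that the intervals do not cover error from that step. What they cover beside counting error was not tested, and the depth estimate treats them as counting error. Libraries were scaled within each fit by the median of ratios. Genes whose mean reached 1 FPKM entered the test on log2(scaled FPKM + 1) with limma 3.58.1 in R 4.3.3 (trend, only the libraries compared) and adjustment by Benjamini-Hochberg across every gene in the fit. A log2 change on this scale understates the change of low genes. Called means an adjusted p under 0.05. Tardbp was compared by a two-sided exact permutation test. The limma step was tested on simulated data with known changes.

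Copies were found with blastn 2.17.0 against GENCODE M21 (37604 genes shared with the files), because its annotation names no parent genes of pseudogenes. Genes named are the 10 members, Tardbp, up to 3 copies of a member by FPKM, the 2 genes of highest mean FPKM and any called gene of each pathway list, the 5 genes nearest to the member profile, and fixed cell type markers. Eno2, Pfkl, Hk2 and Senp1 were named after their values were seen. Members, lists and tests were chosen with earlier results of these data known. Libraries that share a replicate number had low correlations of their deviations from group means (-0.088 to 0.134 over 5744 genes). Low correlations between separately amplified libraries cannot show that they came from different cultures, so whether the numbers mark related libraries is open. The fits within and between compartments use no pairing. The test of the difference between compartments does pair by number, as an assumption. Python 3.11.15, numpy 2.4.6, pandas 2.3.3, scipy 1.17.1 and matplotlib 3.10.9 were used. Alternatives were FPKM as deposited, quantile normalization, scaling to Gapdh, pseudocounts of 0.1 and 5, no filter and a filter of 10 FPKM, array weights, no shallow libraries, all 20 libraries in 1 fit, a replicate block and leaving out each library. Adding the copies to a gene's row, and counting pathway genes below 0 in FPKM as deposited, were chosen after seeing the data. The result of 1 marker list is not reported here.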

Additional observations from a re-analysis of the deposited data

Results flagged for a closer look

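In each of 40 groups of 4 or 6 values of the members, the highest and the lowest library were compared with the nearest other one. A library stood apart in 2 of the 40, where chance alone gives about 1 in 20 such groups. Both are the same library, control axonal replicate 2. Pfkm was at 12.6 FPKM there, against 6.55 in the next highest control axonal library and 5.83 in the lowest, a gap of 0.894 of the whole range. Pgam1 was at 54.9 FPKM, against 31.9 in the next highest and 29.7 in the lowest, a gap of 0.914 of the range. Without control axonal replicate 2, the log2 change of Pfkm between control compartments was -1.40 (adjusted p = 0.0206 in limma). That library was flagged for its high Pfkm value, so leaving it out enlarges the decrease by itself. This fit is therefore no added support.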

How the results depend on the processing

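Between control compartments, 2 members were called. The number was 4 with scaling to Gapdh, all of them lower and without Eno1 (0.89, adjusted p = 0.0817), where 2375 of the 13760 genes were called lower (Aldoa among the 4 at -0.64, adjusted p = 0.0442, against 0.03), 1 with a replicate block (Pfkm lost, adjusted p = 0.0905) and 0 with all 20 libraries in 1 fit. It ran from 0 (without control axonal replicate 1 or without control somatodendritic replicate 3) to 4 (without control axonal replicate 4) when each library was left out. With the copies added it was 1 with all 20 libraries in 1 fit, 1 with the replicate block, and at the lowest 1 when a library was left out; Eno1 was the member called in each of these. After knockdown in the somatodendritic compartment array weights gave 1 call (Pgk1, -1.05, adjusted p = 0.0487) in place of 0. In axons the copies with all 20 libraries in 1 fit gave 2 (Eno1, -1.47, adjusted p = 0.0156, and Aldoa, -0.87, adjusted p = 0.0419). The difference in axonal Tardbp, -11.6 FPKM, was -19.5 after scaling (exact permutation test, p = 0.00952) and ran from -15.6 (without knockdown axonal replicate 1, exact permutation test, p = 0.0159) to -8.965 (without control axonal replicate 1) when each library was left out. The causes were not tested.

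Over all genes, the calls in the 4 comparisons numbered 949 (327 to 2693 over the alternatives), 179 (13 to 758), 134 (18 to 432) and 56 (30 to 240), and 3 (0 to 7) for the difference between compartments. With the replicate block they were 430, 13, 18 and 35, and the difference had 4 without pairing. Of the planned single-gene values, 22 of 189, 17 of 228, 17 of 208, 13 of 209 and 18 of 198 changed sign without being called. Between control compartments 13 of the 189 also lost a call, 8 gained a call and 1 was reversed. After knockdown in the somatodendritic compartment 1 of the 208 gained a call. The intervals in the files are widest for Hk1, Pgk1 and Eno1, and the cause was not tested.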
